A study of Mus musculus and Homo sapiens with 30 samples.

Results

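NMuMG is an epithelial line from the mouse mammary gland. Its messenger RNA was compared after exposure to the secretome of lean inguinal adipocytes, the medium that fat cells of the groin depot had conditioned, and after the same time in its own growth medium. The comparison rested on 6 of the 30 libraries of the series, picked by their labels: 3 replicates with lean secretome and 3 in control medium. The series also held NMuMG cells given obese secretome, the mouse mammary cancer line E0771 and the human breast cancer line SkBr3, and its title concerns an oxylipin from lean fat cells and ferroptosis. All NMuMG cells were seeded below confluence, grew for 36 h and were treated for 16 h. Their standard medium was DMEM with added glucose (4.5 g/L), insulin at 10 mcg/ml and 10% serum. Lean cultures received 50% secretome and 50% of that medium, and control cultures received the medium alone. Control medium held no conditioned share, so products of the fat cells, the smaller share of standard medium and other effects of conditioning cannot be told apart here. The labels list the line under breast cancer, do not give the species of the fat cells, and number the replicates without saying that they were separate cultures or separate batches of secretome. The p-values therefore measure the spread between these samples, which may be technical.

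In ferroptosis, iron and peroxides of membrane phospholipids kill the cell. Cells restrain it by importing cystine, making glutathione from it and letting the selenoenzyme GPX4 reduce the peroxides. Reactive lipids and other electrophiles also modify KEAP1, which frees the transcription factor NRF2 to bind antioxidant response elements and turn on genes for glutathione synthesis, conjugation, export and NADPH supply.

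Library totals ran from 25556882 to 29686456 counts, and 15014 genes had enough counts to be tested. Levels are given as CPM, a gene's count scaled to a normalized library total of 1000000. Epithelial markers were abundant in both media: Krt8 was at 3434 ± 101 CPM in control medium (SD, n = 3) and 3816 ± 74.0 CPM with lean secretome, Krt19 at 760.3 ± 38.6 and 769 ± 36.2 CPM, and Cdh1 at 541 ± 15.8 and 522 ± 8.64 CPM. Epcam was low, at 2.18 ± 0.25 CPM in control medium, and the tight junction genes Cldn3 and Cldn7 had 0 counts in the control libraries. Of the markers of other cells, 4 of 16 for adipocytes, 2 of 10 for fibroblasts, 2 of 9 for immune cells and 0 of 6 for endothelium reached the level needed for testing. The defining adipocyte genes Adipoq, Plin1 and Lep summed to 0 counts in control medium and to at most 3 counts with lean secretome. Of the 4 tested adipocyte genes, 2 (Cidec and Lipe) were higher with lean secretome and 1 (Cebpa) lower, by the test described below. Cd36, an untested adipocyte marker, summed to 1 count in control medium and 33 with lean secretome. The first principal component of the 6 libraries held 58.3% of the variance and set the lean libraries (22.1 to 28.6) apart from the controls (-25.4 to -25.0).

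Lean secretome changed a large share of the transcriptome by small amounts. At an adjusted p under 0.05 in edgeR's quasi-likelihood test with Benjamini-Hochberg adjustment, 5731 of 15014 genes were called, or 38.2%, with 2864 higher (19.1%) and 2867 lower (19.1%). Of the called genes 4283 (74.7%) moved by less than 0.5 on the log2 scale, 499 (3.32% of those tested) by at least 1 and 85 by at least 2. The tail was uneven: 305 of the 499 were higher and 194 lower, and past 2 the numbers were 63 and 22. Over all tested genes the median log2 fold change was -0.0046 with a median SE per gene of 0.0697. A value in parentheses after a gene is its log2 fold change of lean over control, and a single CPM value is the mean of 3 libraries. The libraries of both media were fully separated in 47.8% of the tested genes. The share called grew with the level of the gene, from 11.9% at a mean log2 CPM of 0 or less to 44.6% between 4 and 6 and 64.4% above 8, so counts in lists of abundant genes have a higher background than 38.2%.

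**Figure D1:**
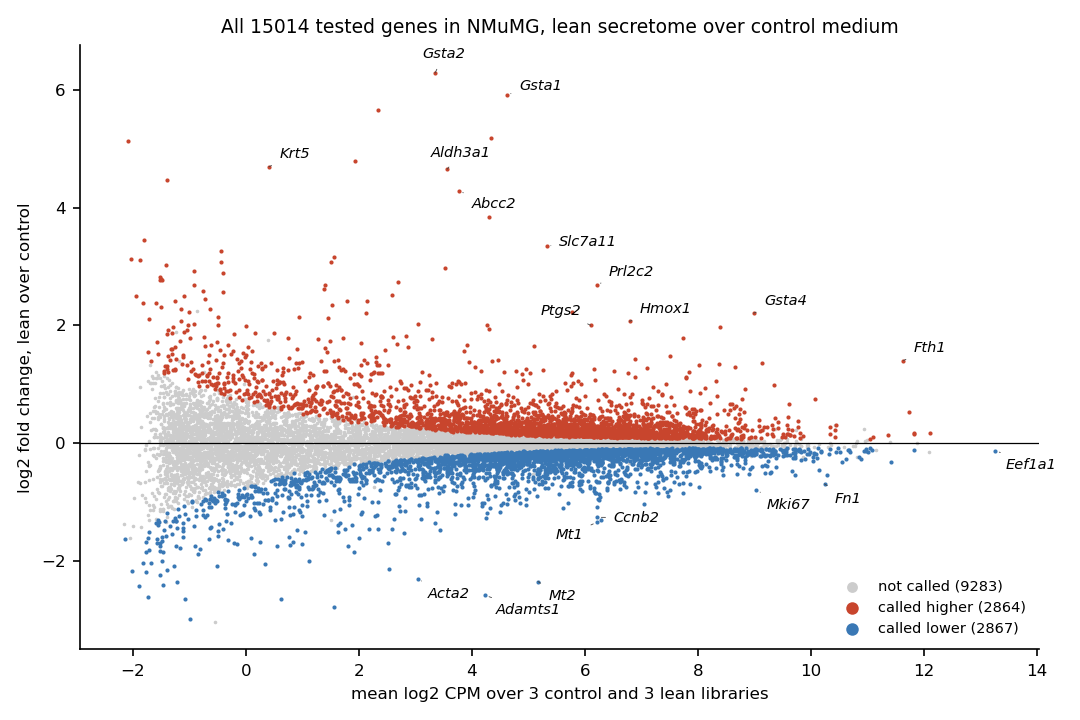
Each point is 1 of the 15014 tested genes, with its mean log2 CPM over the 6 libraries on the x axis and its log2 fold change of lean over control on the y axis, coloured by whether it was called higher (2864), lower (2867) or not. The upper tail reaches 6.29 (Gsta2), while Adamts1, Mt2 and Acta2 lie between -2.58 and -2.31.

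The 15 largest increases among well measured genes were led by enzymes and transporters that handle electrophiles. Gsta2 and Gsta1 (ENSMUSG00000057933, ENSMUSG00000074183) encode glutathione S-transferases, Aldh3a1 (ENSMUSG00000019102) an aldehyde dehydrogenase, Abcc2 (ENSMUSG00000025194) an export pump for glutathione conjugates and Slc7a11 (ENSMUSG00000027737) the cystine carrier of system xc-. Gsta2 was at 0.974, 1.41 and 0.996 CPM in the control libraries and 84.7, 78.6 and 100.2 CPM in the lean libraries, and the fitted change was 6.29 on the log2 scale with SE 0.838 and adjusted p = 0.00127. Gsta1 went from 2.52, 3.44 and 3.45 to 184, 187 and 196 CPM (log2 fold change 5.92, SE 0.899, adjusted p = 0.00234). In both genes the lowest lean library was far above the highest control, but reads may be shared between these paralogs and related gene models on the same table. Aldh3a1 was at 2.89, 2.1 and 1.99 CPM in control medium and at 58.0, 54.2 and 65.2 CPM with lean secretome (4.66 on the log2 scale with SE 0.509, adjusted p = 0.000474). Abcc2 was at 2.42, 3.21 and 3.66 and 60.3, 49.7 and 70.2 CPM in the same order (log2 fold change 4.28, SE 0.416, adjusted p = 0.000261). In both genes every lean library lay far above every control. The estimate of spread was shared with the 3 obese libraries of the same line, and obese replicate 1 stood nearer to the lean libraries than the other obese libraries in most genes plotted by library. In a fit of the 6 lean and control libraries alone the log2 fold changes were the same and the adjusted p fell to 2.13e-44 for Gsta1 and 5.59e-24 for Slc7a11. The other genes of the group were Prl2c3 (3.84) and Prl2c2 (2.69), near-identical prolactin family genes also known as proliferins, Blvrb (2.97), the FGF-binding protein gene Fgfbp1 (2.74), Aldh1a7 (2.51), Vmn2r79 (2.42), Gstm1 (2.22), Eps8l3 (2.21), Gsta4 (2.21) and Hmox1 (2.07).

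The 15 largest decreases were smaller and of more mixed function. Adamts1 (ENSMUSG00000022893), a secreted metalloprotease that cleaves proteoglycans, was at 46.9, 45.3 and 45.4 CPM in control medium and 7.13, 8.46 and 7.39 CPM with lean secretome. On the log2 scale it changed by -2.58 with SE 0.221 and adjusted p = 0.000129. Acta2 (ENSMUSG00000035783), smooth muscle actin, went from 18.3, 18.2 and 17.7 to 3.41, 3.75 and 3.81 CPM (log2 fold change -2.31, SE 0.0967, adjusted p = 2.35e-19). The 3 libraries of each medium lay close together in both genes, and the media did not overlap. Mt2 (-2.35) and Mt1 (-1.34) encode metallothioneins, Tagln (-2.14) an actin-binding protein of contractile cells, Dhrs3 (-1.69) a retinaldehyde reductase, Alpl (-1.53) tissue-nonspecific alkaline phosphatase and Hey1 (-1.46) a Notch target. Aspm (-1.30) and Cdkn3 (-1.29) act in cell division. Peg10 (-1.62), Adgra2 (-1.48), Map1a (-1.46), Apba1 (-1.45) and Nrep (-1.36) completed the group.

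**Figure D2:**
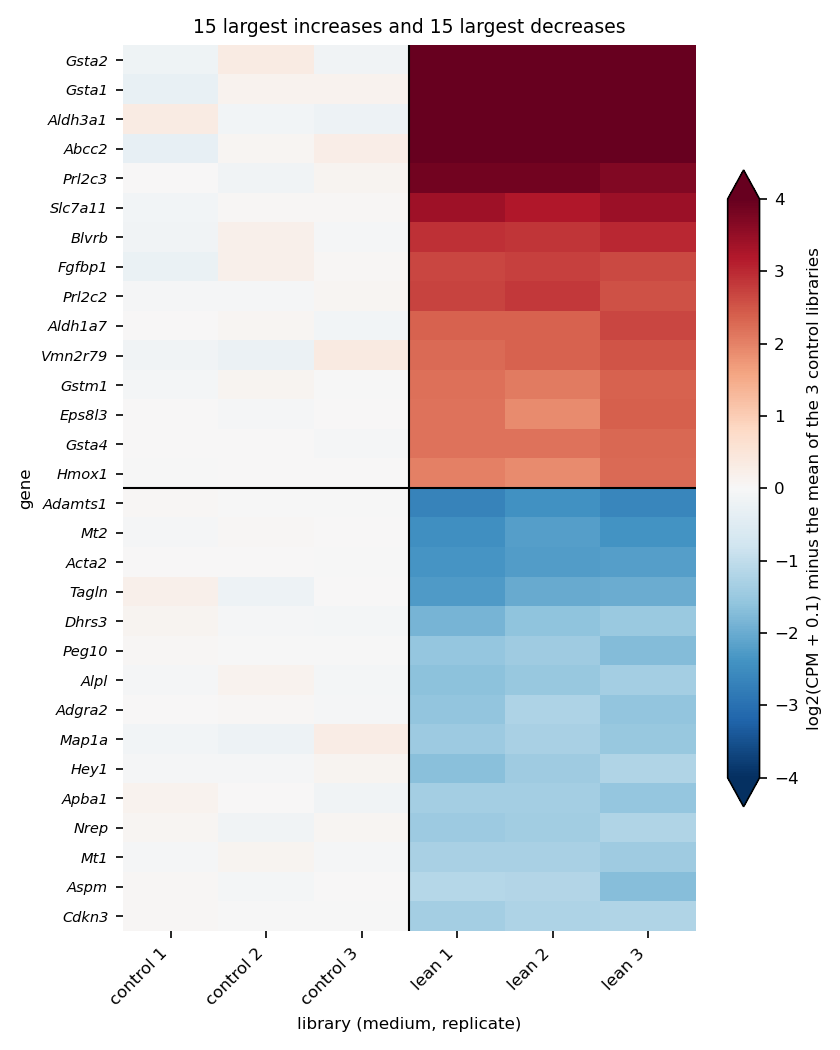
Rows are the 15 largest increases and 15 largest decreases, columns the 3 control and 3 lean libraries, and colour gives log2(CPM + 0.1) minus the mean of the controls, with differences past 4 in the darkest shade. In every row the 3 lean libraries share a sign, which follows from the selection, since only genes without overlap between media were eligible. The controls stay near 0.

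As shares of all counts, without regard to gene length, ferritin gained most. Fth1 (ENSMUSG00000024661), the heavy chain that oxidises and stores iron, was at 1963, 1986 and 1919 CPM in control medium and 5105, 5014 and 5421 CPM with lean secretome (log2 fold change 1.41, SE 0.168, adjusted p = 0.000741). The light chain gene Ftl1 was at 2807, 2958 and 2761 and 4113, 4046 and 4198 CPM (log2 fold change 0.54, adjusted p = 0.0044). Together the pair took 4680 to 4944 CPM of a control library and 9061 to 9619 CPM of a lean one, although ferritin genes have processed copies in the genome that can share reads. Gsta4 (236 to 1092 CPM), Prdx1 (831 to 1399) and Gclc (350.2 to 898) followed, and these 5 genes held 12.2% of all CPM gained by genes called higher. The genes that lost most CPM were the translation factor Eef1a1 (10263 to 9419.8 CPM), Spp1, which encodes osteopontin (3068 to 2452), fibronectin Fn1 (1539 to 953), fibulin Fbln2 (1506 to 1031) and the nuclear noncoding RNA Neat1 (1325 to 964). Neat1 kept its direction in every alternative but lost its call without control replicate 2 (adjusted p = 0.0582), control replicate 3 (0.0532), lean replicate 2 (0.0598) or lean replicate 3 (0.0583). Among the 100 genes with the highest control level, 15 were called higher and 55 lower. These are bulk samples, in which fewer cells of a kind and less RNA per cell cannot be told apart.

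Gene lists were then read by role, each beside the whole table, where 19.1% of genes were higher, 19.1% lower and the median was near 0. The list of 31 NRF2 genes held antioxidant and NADPH targets and also regulators, among them Nfe2l2, Keap1 and Bach1. Of the 31 genes 28 were higher and 1 lower, with a median log2 fold change of 0.65, and 11 rose by at least 1. Their summed level was 6429 to 6497 CPM in the control libraries and 10240 to 11240 CPM in the lean libraries. Slc7a11 was at 11.7, 12.9 and 13.0 CPM and 131, 115 and 136 CPM (3.35 with SE 0.365, adjusted p = 0.00047). Gclc, the catalytic subunit of the ligase that starts glutathione synthesis, was at 360.1, 345 and 346 and 884, 847 and 963 CPM (1.36, adjusted p = 0.000557), and its modifier subunit Gclm at 219, 212 and 216 and 312, 306 and 334 CPM (0.56, adjusted p = 7.23e-07). No lean library overlapped a control in any of the 3 genes. Hmox1, which breaks down heme, was at 53.4, 54.6 and 54.4 and 217, 202 and 263 CPM (2.07, adjusted p = 0.000261), and the quinone reductase Nqo1, a standard NRF2 target, was low but higher with lean secretome, at 0.907, 1.18 and 0.747 and 8.02, 8.13 and 7.66 CPM (3.07, adjusted p = 0.00377). Lean replicate 3 was the highest lean library in Slc7a11, Gclc, Gclm and Hmox1.

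Within the same list the thioredoxin system rose through Srxn1 (46.0 to 111 CPM, log2 fold change 1.27), which repairs oxidised peroxiredoxin, Txnrd1 (332 to 626 CPM, 0.92), Prdx1 (0.75) and Txn1 (0.45). The NADPH-forming enzymes of the pentose phosphate pathway rose too, Pgd by 1.06 and G6pdx by 0.64, with Taldo1 (0.50) and Tkt (0.40) of its nonoxidative arm. Multidrug exporters of the ABCC family rose together: Abcc2 (4.28), Abcc4 (1.34), Abcc1 (1.20) and Abcc3 (0.65). Epoxide hydrolase Ephx1 rose by 1.49 and catalase by 0.58. The regulators stood apart from the targets: Nfe2l2, which encodes NRF2 itself, was at 177, 175 and 178 CPM in control medium and 153, 157 and 168 CPM with lean secretome and fell by 0.15 (adjusted p = 0.00201), while Keap1 (-0.08, adjusted p = 0.17) and Bach1 (0.10, adjusted p = 0.214) did not pass and their libraries overlapped. Gene expression does not report the amount of NRF2 protein, which KEAP1 sets after translation.

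Promoter sequences of these genes are shown because antioxidant response elements are where NRF2 binds. RefSeq sequences (GRCm38.p6 table, 250 bases before to 50 bases after each start) were found for 23 of the 29 called members, in 30 windows. The motif TGACNNNGC was searched on both strands and stood in 13 of the 30 windows (43.3%), against 12.4% of all 32851 windows of the table. The variant TGAGNNNGC, added after values were seen, stood in 8 of 30 (26.7%) against 17.6% of all windows. For the called glutathione S-transferases described next, TGACNNNGC stood in 4 of 16 windows (25%) and TGAGNNNGC in 2 of 16 (12.5%). For the called aldehyde and carbonyl genes the numbers were 1 of 18 (5.56%) and 7 of 18 (38.9%), so the share of TGACNNNGC was above that of all windows in 2 of the 3 lists and below it in the other. No position and strand can match both motifs, and a match is a description of letters, not a bound site. The 250 bases before the start are given for 4 members whose levels rose, with matches to either motif in capitals.
Prdx1, chr4:116685349-116685598, plus strand: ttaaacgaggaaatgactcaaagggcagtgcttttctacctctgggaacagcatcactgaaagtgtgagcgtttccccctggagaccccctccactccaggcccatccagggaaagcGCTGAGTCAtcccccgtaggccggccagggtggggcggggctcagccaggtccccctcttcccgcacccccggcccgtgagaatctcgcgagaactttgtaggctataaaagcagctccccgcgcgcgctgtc
Srxn1, chr2:152105274-152105523, plus strand: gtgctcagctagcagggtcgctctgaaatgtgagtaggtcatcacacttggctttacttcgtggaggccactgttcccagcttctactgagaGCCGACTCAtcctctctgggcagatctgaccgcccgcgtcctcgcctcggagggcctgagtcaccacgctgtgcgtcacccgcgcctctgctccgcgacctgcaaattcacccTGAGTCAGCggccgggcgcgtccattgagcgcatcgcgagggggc
Abcc2, chr19:43782058-43782307, plus strand: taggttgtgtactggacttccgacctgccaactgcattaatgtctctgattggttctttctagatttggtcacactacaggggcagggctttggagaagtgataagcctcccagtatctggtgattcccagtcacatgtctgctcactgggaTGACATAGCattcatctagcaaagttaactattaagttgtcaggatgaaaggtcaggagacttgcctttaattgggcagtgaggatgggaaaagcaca
G6pdx, chrX:74428881-74429130, minus strand: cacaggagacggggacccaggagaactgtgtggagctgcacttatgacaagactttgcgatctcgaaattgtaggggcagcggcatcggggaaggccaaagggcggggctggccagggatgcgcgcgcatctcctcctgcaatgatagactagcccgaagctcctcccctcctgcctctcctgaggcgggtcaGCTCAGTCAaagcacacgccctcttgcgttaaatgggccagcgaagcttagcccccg
The matches begin 133 bases before the start in Prdx1, 158 and 45 bases before it in Srxn1, 98 in Abcc2 and 57 in G6pdx. Levels of these genes rose by 0.75, 1.27, 4.28 and 0.64 on the log2 scale in the same order.

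Conjugation and aldehyde clearance made up the next block. Of 19 tested glutathione S-transferases, which attach glutathione to reactive molecules, 14 were higher and 0 lower, with a median log2 fold change of 1.00, and their summed level went from 1005 to 1039 CPM in control medium to 2920 to 3184 CPM. Gsta4, the isoform specialised in 4-hydroxynonenal, a breakdown product of lipid peroxides, was at 238, 239.8 and 230.2 CPM in control medium and 1061, 1054 and 1161 CPM with lean secretome (2.21, adjusted p = 0.00178). Gsto1 was at 462 and 921 CPM (1.00) and Gstp1 at 165 and 414 CPM (1.33). The Gstp1 value is uncertain, since its near copy Gstp2 read 17.9, 0.917 and 1.28 CPM in control medium and 2.44, 2.49 and 3.42 CPM with lean secretome, overlapping, and did not pass (-1.31, adjusted p = 0.427). Control replicate 1 decided that value: without it Gstp2 was higher with lean secretome, by 1.32 (adjusted p = 0.000189). The alpha, mu, pi, omega and microsomal classes each had at least 1 member that rose. Gsta3 was at 0.94, 0.535 and 0.605 and 18.4, 16.1 and 24.3 CPM (4.79), and Gstm3 was the only gene of the whole table that went from at most 3 counts in each control library to at least 20 in each lean one, with 1, 2 and 1 counts in control replicates 1 to 3 and 35, 21 and 38 in lean replicates 1 to 3.

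Of 23 tested genes for aldehyde and carbonyl clearance, 19 were higher and 1 lower, with a median log2 fold change of 0.45. Aldh1a1, which oxidises retinaldehyde and lipid aldehydes, was at 172, 167 and 168 CPM in control medium and 663, 665 and 665 CPM with lean secretome (1.97, adjusted p = 0.000196). The aldo-keto reductase Akr1b8 was at 120.2, 114 and 109 and 396, 397 and 388 CPM (1.78, adjusted p = 0.000518). Both genes had tight libraries within each medium and no overlap between media. Mitochondrial Aldh2 (234 to 377 CPM, 0.69), carbonyl reductase Cbr1 (20.1 to 48.4 CPM, 1.26) and Ptgr1 (17.1 to 31.6 CPM, 0.88), a reductase of prostaglandins and of unsaturated aldehydes, rose as well. The 1 lower member, Akr1c14 (-0.31), had overlapping libraries and lost its call without control replicate 1 (adjusted p = 0.0888).

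**Figure D3:**
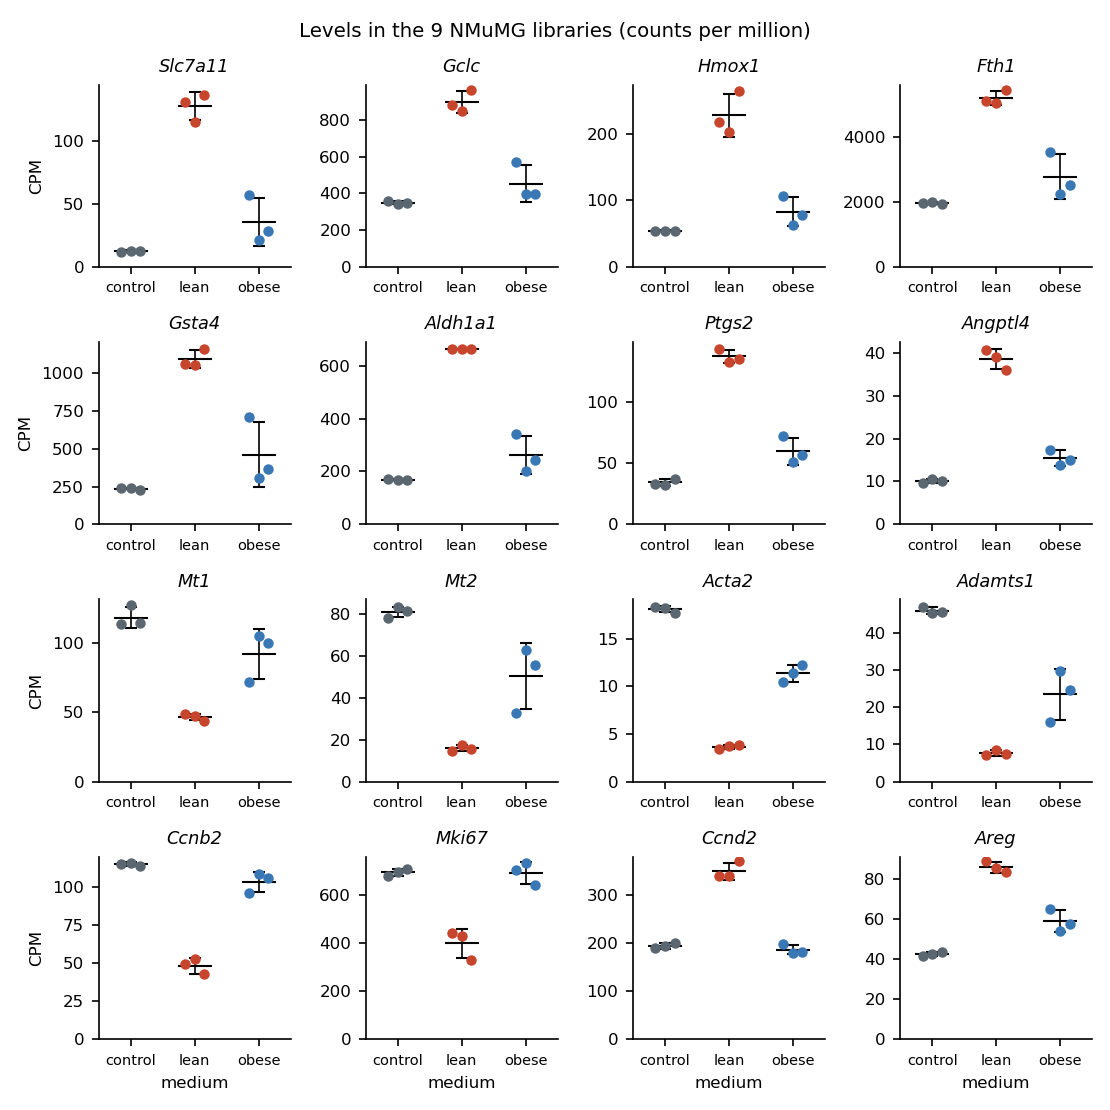
CPM in each of the 9 NMuMG libraries by medium for 16 genes, with points for replicates 1 to 3 from left to right, and the mean and SD as a bar. Lean and control libraries do not overlap in any panel, and the 3 obese libraries, shown for reference, lie between the means of the other media in 14 of the 16 panels, with Mki67 and Ccnd2 as the exceptions.

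Among iron and heme genes 13 of 23 tested were higher and 2 lower (median 0.20), with 1 lower without control replicate 1, lean replicate 1 or 3 or obese replicate 1 or 3. Beside ferritin and Hmox1, the biliverdin reductase Blvrb went from 4.1 to 32.0 CPM (2.97), the heme transporter Slc48a1 from 70.8, 73.0 and 72.4 to 193, 187 and 204 CPM (1.43, adjusted p = 0.000522) and Alas1, the first enzyme of heme synthesis, from 49.7 to 104 CPM (1.07). The iron exporter Slc40a1 (0.44), the transferrin receptor Tfrc (0.31) and the importer Slc11a2 (0.27) rose by less. Ncoa4, the receptor that sends ferritin to the lysosome, was at 69.0, 67.5 and 72.0 CPM and 72.0, 71.8 and 80.0 CPM, overlapping, and did not pass (0.10, adjusted p = 0.0753). Of the RNA-binding iron regulators, Aco1 rose by 0.20 and Ireb2 did not pass (-0.07, adjusted p = 0.132), although it did without control replicate 2 (0.0246).

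Direct defences against phospholipid peroxides and the enzymes that supply their substrates showed no common direction, with 9 higher and 7 lower of 23 tested (median 0.06). Without control replicate 1 the count higher was 6. Among selenoproteins and peroxidases Gpx1 rose by 0.52 and Gpx4 by 0.20, while the selenium enzyme Sephs2 fell by 0.30. Aifm2, which encodes FSP1, was at 16.6, 16.0 and 16.8 and 16.0, 15.4 and 17.7 CPM and did not pass (-0.01, adjusted p = 0.944), and Dhodh likewise did not (-0.02, adjusted p = 0.868). Acsl3 and the desaturases Scd1 and Scd2, which favour monounsaturated phospholipids, fell by 0.38, 0.55 and 0.32. Lpcat3, which inserts polyunsaturated chains, rose by 0.17, and the peroxidase Gpx8 by 0.35. Mboat1 (0.10) and Acsl4 (0.11), which activates polyunsaturated fatty acids, were called but lost the call when single libraries were left out: Acsl4 without control replicate 1 or 2 or lean replicate 3 (adjusted p up to 0.149), Mboat1 without control replicate 1 or 3 or lean replicate 2 or 3 (up to 0.0866).

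Genes that make or move prostaglandins were among those that rose. Of 25 genes of oxylipin metabolism 12 were tested, 7 were higher and 0 lower (median 0.20), with 1 lower without lean replicate 2 or obese replicate 1 or 2. Ptgs2 (ENSMUSG00000032487), the inducible cyclooxygenase and a common readout in ferroptosis work, was at 33.0, 32.4 and 37.3 CPM in control medium and 144, 133 and 136 CPM with lean secretome (2.00, SE 0.132, adjusted p = 3.09e-05). Pla2g4a, the phospholipase that frees arachidonic acid, was at 84.4, 86.1 and 86.5 and 146, 158 and 154 CPM (0.83), and the prostaglandin transporter Slco2a1 at 111, 121 and 114 and 216, 208 and 220.2 CPM (0.90). Each of these 3 genes had its lean libraries wholly above the controls. The lipoxygenase genes Alox12 and Alox15 had 0 counts in control medium and at most 1 with lean secretome, and Alox5 had sums of 9 and 18, too few to test. Ptges, the inducible prostaglandin E synthase, was untested too, with sums of 9 counts in control medium and 38 with lean secretome.

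Amino acid supply split between transporters and synthesis. Slc3a2, the heavy chain that pairs with Slc7a11, was at 195, 203 and 204 CPM and 388, 373 and 394 CPM (0.94, adjusted p = 1.48e-06), and the neutral amino acid carrier Slc1a4 (0.83) and glycine carrier Slc6a9 (0.82) rose. Slc7a5, another partner of Slc3a2, which carries leucine, was at 140.0, 146 and 139 and 110.1, 111 and 94.0 CPM and fell by 0.43. Over the 16 transporters tested 7 were higher and 3 lower. The ATF4 program of amino acid stress leaned the other way, with 6 higher and 12 lower of 24 (median -0.12), and 8 lower without control replicate 2. Atf4 was at 208, 209 and 203 and 167, 167 and 169 CPM (-0.30, adjusted p = 1.07e-08), the serine synthesis enzyme Psat1 at 702, 698 and 685 and 493, 510.3 and 474 CPM (-0.50), and Pck2 fell by 0.42. Chac1, a glutathione-degrading enzyme often followed in ferroptosis, was at 6.35, 6.53 and 6.61 and 5.68, 4.6 and 6.57 CPM, overlapping, and did not pass (-0.21, adjusted p = 0.2). Higher members were Gdf15 (0.55), Trib3 (0.47), Stc2 (0.44), Ddit4 (0.22) and Sesn2 (0.22), and Ddit3 (0.32), whose call was lost without lean replicate 3 (adjusted p = 0.0664).

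The amino acid response motif TGATGNAAN stood in 5 of the 21 RefSeq windows of the 18 called ATF4 genes (23.8%) against 3.95% of all windows. The promoter of Asns, asparagine synthetase, is shown as the textbook case, with the match in capitals, 23 bases before the start, and its level was 97.3, 98.3 and 99.5 CPM in control medium and 90.1, 91.2 and 87.4 CPM with lean secretome (-0.13, adjusted p = 0.0056).
Asns, chr6:7693210-7693459, minus strand: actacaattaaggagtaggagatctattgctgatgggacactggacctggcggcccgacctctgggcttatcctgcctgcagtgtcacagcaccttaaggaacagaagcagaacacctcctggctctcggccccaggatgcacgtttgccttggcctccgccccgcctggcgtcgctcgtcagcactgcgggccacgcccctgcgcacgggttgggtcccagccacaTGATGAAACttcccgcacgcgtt
The small decrease in Asns lay outside the spread of the libraries.

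Standard zinc-responsive genes fell. Metallothioneins are small cysteine-rich proteins that bind zinc and copper and are induced by free zinc through the factor MTF1. Mt1 was at 113, 127 and 114 CPM in control medium and 48.4, 47.6 and 44.0 CPM with lean secretome (-1.34, SE 0.148, adjusted p = 0.000501), and Mt2 at 78.4, 83.4 and 81.5 and 14.9, 17.5 and 15.4 CPM (-2.35, SE 0.246, adjusted p = 0.000379). The zinc exporter Slc30a1, another MTF1 target, was at 19.9, 21.1 and 18.9 and 12.4, 14.2 and 13.4 CPM (-0.58, adjusted p = 1.22e-05). The importer Slc39a10 fell, from 281, 284 and 290.0 to 160.3, 162 and 155 CPM (-0.84), and the importer Slc39a4 rose, from 72.8, 74.0 and 69.1 to 166, 156 and 171 CPM (1.19). Mtf1 itself did not pass (0.12, adjusted p = 0.143), although it did without lean replicate 3 (0.0402). In all, 3 of 11 tested genes were higher and 4 lower, and the third metallothionein tested, Mt3, rose at a low level, from 0.134, 0.229 and 0.0711 to 1.03, 0.594 and 0.7 CPM (2.41, adjusted p = 0.000295).

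Metal response elements were searched as TGCACNC or TGCGCNC on both strands, a motif chosen after the values were seen. They stood in 4 of the 6 windows (66.7%) found for 5 of the 7 called members, against 25.7% of all windows. The 2 forms of the motif differ by 1 base and cannot match at the same place. The matches were in Mt1, Mt2 and Slc30a1, which fell, and in Mt3, which rose. Whether these letters bear on the changes was not tested.

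Lipid genes divided by function. Of 27 tested PPAR targets and genes of fatty acid oxidation 15 were higher and 0 lower (median 0.24). Angptl4, a secreted lipase inhibitor and sensitive PPAR target, was at 9.67, 10.5 and 10.1 CPM in control medium and 40.8, 39.1 and 36.1 CPM with lean secretome (1.94, SE 0.0756, adjusted p = 6.43e-20). The lipid droplet coat protein Plin2 was at 169, 175 and 171 and 325, 318 and 309 CPM (0.89) and Cpt1a, the gate of mitochondrial fatty acid entry, at 176, 179 and 176 and 269, 267 and 274 CPM (0.61). The 3 genes had no overlap between media and a small spread within each medium. Pdk4 (1.00), Acot2 (0.99) and Acadl (0.36) also rose, while Acadm (-0.02, adjusted p = 0.745) did not pass. For droplets and triglyceride 10 of 22 tested genes were higher and 5 lower, with 3 lower without control replicate 1 or 3 or lean replicate 1 or 2. Cidec (0.549 to 2.02 CPM, 1.87) and the triglyceride lipase Pnpla2 (0.35) rose, and its inhibitor G0s2 was at 6.88, 7.76 and 6.51 CPM and 2.03, 2.34 and 1.48 CPM (-1.84, adjusted p = 1.47e-10).

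Synthesis of fatty acids and cholesterol ran lower by small amounts. In the fatty acid list 3 of 15 tested genes were higher, but 1 without control replicate 1 or lean replicate 3. The list had 8 lower (median -0.19), among them Fasn at 672, 700.4 and 680.0 and 563, 533 and 468 CPM (-0.39, adjusted p = 0.00164), Scd1 at 59.6, 61.8 and 57.6 and 43.1, 39.1 and 39.5 CPM (-0.55) and Elovl6 (-0.47). In the cholesterol list 4 of 24 were higher and 13 lower (median -0.11). Hmgcs1, which acts early in the mevalonate pathway, fell by 0.35 and Insig1, which holds back sterol-driven transcription, by 0.31. The sterol response element was in 0 of the 12 RefSeq windows of the called cholesterol genes and in 0.234% of all windows.

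Every mitotic gene examined fell. Of 29 tested genes of the G2 and M phases 0 were higher and 29 lower, with log2 fold changes from -1.26 to -0.33 and a median of -0.69, and the libraries of the 2 media did not overlap in any of the 29, against 47.8% of all tested genes. Their summed level was 6467, 6336 and 6441 CPM in the control libraries and 4149, 4483 and 3560 CPM in the lean libraries. Lean replicate 3 was the lowest of the lean libraries in all 29 genes, and all 29 were still called lower when it was left out. Ccnb2, a mitotic cyclin, was at 116, 116 and 114 CPM in control medium and 49.2, 52.5 and 42.6 CPM with lean secretome (-1.26, SE 0.0593, adjusted p = 4.76e-12). The proliferation marker Mki67 was at 679, 696 and 709 and 440.0, 427 and 328 CPM (-0.80, adjusted p = 0.00189), and the kinetochore gene Cenpf at 195, 176 and 199 and 98.6, 104 and 74.8 CPM (-1.04, adjusted p = 0.000862). The kinase Cdk1, which drives entry into mitosis, fell least, from 189.6, 186 and 185 to 152, 162 and 132 CPM (-0.33).

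Genes of the G1 and S phases did not share that direction, with 8 higher and 15 lower of 33 (median -0.11), and 5 higher without control replicate 1 or 3 or lean replicate 2. The cyclins of G1 rose: Ccnd2 was at 189, 194 and 200.3 CPM and 340.4, 340.2 and 371 CPM (0.85, adjusted p = 4.04e-17), Ccne1 at 29.7, 27.2 and 29.2 and 47.1, 48.5 and 46.0 CPM (0.72), and Ccnd1 rose by 0.31. Among replication genes Mcm7 (-0.41), Gins1 (-0.44) and Pola1 (-0.35) fell, and Mcm4, Mcm6 and Rrm2 were not called. The 8 higher members were not all cyclins. Of 28 p53 targets and cell cycle inhibitors 19 were higher and 3 lower (median 0.25). Plk2 (0.82), Mdm2 (0.57), Btg2 (0.60) and the CDK inhibitor Cdkn1a (143, 143 and 144 to 196, 188 and 195 CPM, 0.43) rose. The inhibitors Cdkn1b (97.6, 91.0 and 96.7 to 61.4, 60.6 and 59.2 CPM, -0.66) and Cdkn1c (-1.19) fell.

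Mitotic promoters often carry a cell cycle homology region (TTTGAA) near CCAAT boxes. Both motifs were picked after the decrease was seen and searched on both strands. TTTGAA stood in 20 of the 26 windows of the 24 mitotic genes that RefSeq held (76.9%), against 17.9% of all windows, and CCAAT in 22 of 26 (84.6%) against 37.4%. Matches of the 2 motifs can share at most 1 base. Cdk1 and Cdc20 are shown as examples, with TTTGAA and CCAAT in either orientation in capitals.
Cdk1, chr10:69352913-69353162, minus strand: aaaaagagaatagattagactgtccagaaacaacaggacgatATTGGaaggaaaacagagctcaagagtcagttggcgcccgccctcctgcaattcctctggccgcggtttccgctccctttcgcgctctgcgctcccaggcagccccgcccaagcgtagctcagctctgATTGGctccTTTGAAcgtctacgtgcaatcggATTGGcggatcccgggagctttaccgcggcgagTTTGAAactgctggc
Cdc20, chr4:118437344-118437593, minus strand: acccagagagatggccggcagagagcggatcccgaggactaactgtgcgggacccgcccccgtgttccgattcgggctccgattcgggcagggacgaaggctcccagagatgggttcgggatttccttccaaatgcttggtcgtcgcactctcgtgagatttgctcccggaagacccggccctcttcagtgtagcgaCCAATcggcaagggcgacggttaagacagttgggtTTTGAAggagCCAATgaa
The copies of TTTGAA begin 71 and 15 bases before the start of Cdk1 and 18 bases before that of Cdc20. Cdc20, the activator of the anaphase complex, was at 160.3, 162 and 154 and 89.9, 97.8 and 79.4 CPM (-0.83, adjusted p = 3.43e-10).

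**Figure D4:**
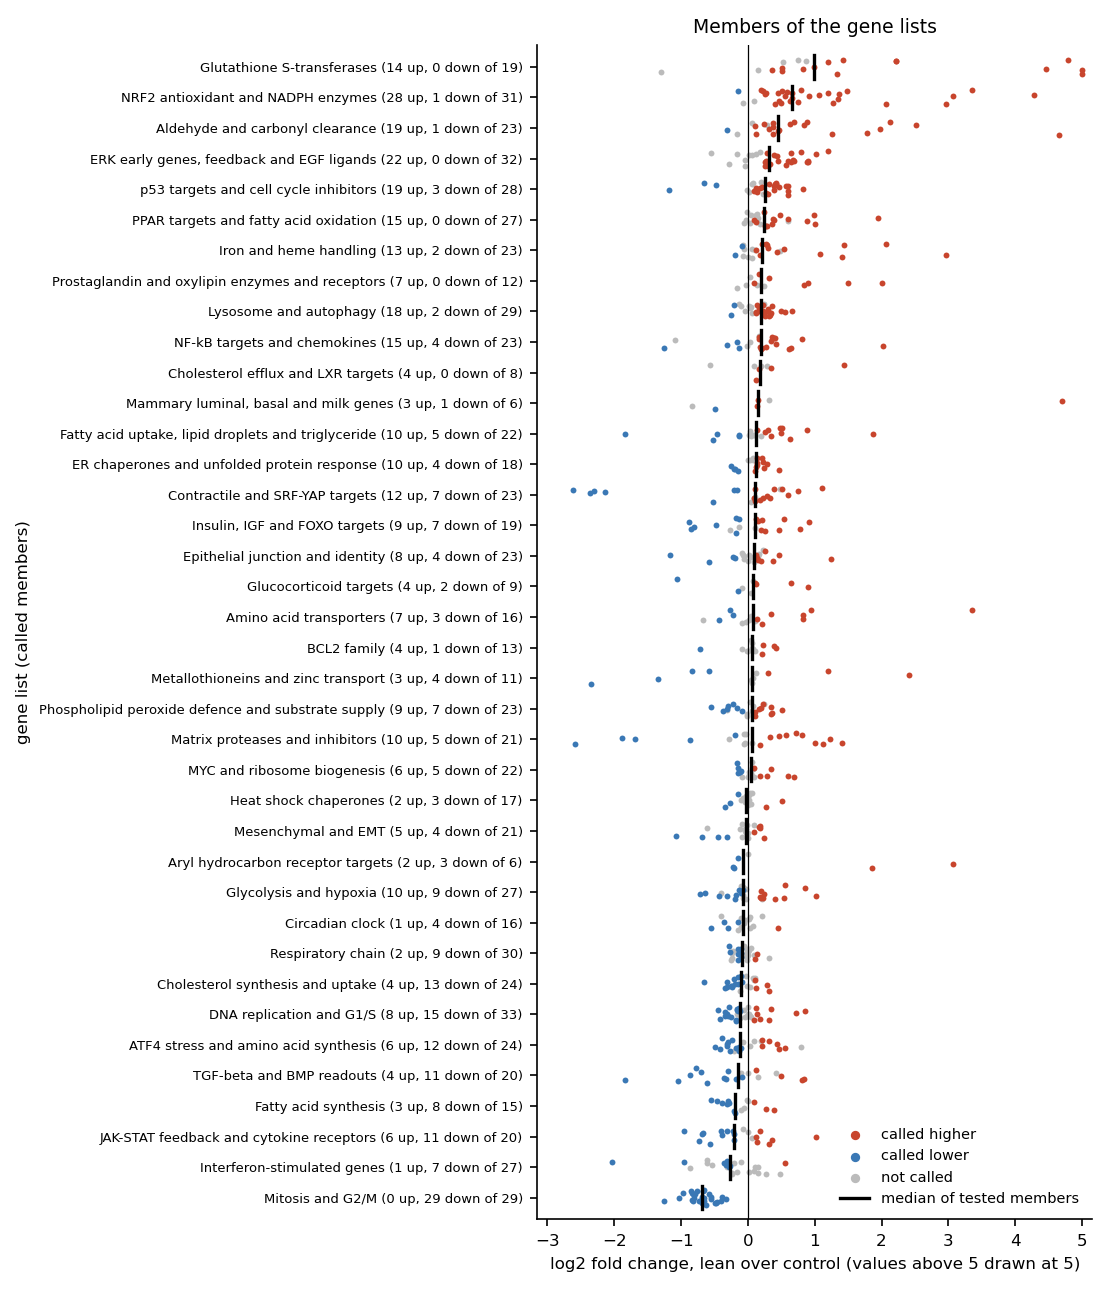
Each row is a gene list with at least 6 tested members, ordered by its median log2 fold change of lean over control (black bar), and each point is a tested member coloured by its call, with values above 5 drawn at 5. Glutathione S-transferases (median 1.00) and NRF2 genes (0.65) stand at the top and mitotic genes (-0.69) at the bottom, while most medians lie near the -0.0046 of all tested genes.

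Contractile and adhesion genes split into opposite groups. In the list of contractile genes and targets of SRF and YAP, 12 of 23 tested were higher and 7 lower (median 0.10). The smooth muscle genes Acta2 and Tagln fell, Tagln from 13.7, 10.2 and 12.0 to 2.38, 2.86 and 2.95 CPM (-2.14, adjusted p = 8.42e-15), and with them the low-level genes Myl9 (0.772 to 0.148 CPM, -2.36) and Cnn1 (0.547 to 0.0836 CPM, -2.61). 3 standard YAP targets rose: Ccn1 was at 145, 156 and 150.4 and 339.8, 304 and 328 CPM (1.11), Ccn2 at 333, 337 and 352 and 591, 572 and 555 CPM (0.75) and Ankrd1 at 316, 320.3 and 327 and 498, 483 and 485 CPM (0.61). Media did not overlap in any of these genes. The CArG box, to which SRF binds, was searched after the values were seen and stood in 5 of the 21 windows of 17 called members (23.8%), against 1.63% of all windows, and the match in Myl9 is shown in capitals 161 bases before the start.
Myl9, chr2:156775214-156775463, plus strand: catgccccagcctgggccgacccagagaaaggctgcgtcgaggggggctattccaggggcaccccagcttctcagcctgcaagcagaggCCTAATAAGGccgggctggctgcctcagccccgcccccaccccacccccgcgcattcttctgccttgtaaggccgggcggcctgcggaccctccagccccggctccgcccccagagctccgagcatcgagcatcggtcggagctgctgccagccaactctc
The matches were in Cnn2, Myl9, Vcl and Fhl2, of which Myl9 fell and the other 3 rose.

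Markers of epithelial and mesenchymal state gave no common shift. Of 23 tested epithelial genes 8 were higher and 4 lower, and Cdh1, which encodes E-cadherin, was at 539.7, 557 and 525 CPM in control medium and 525, 512 and 528 CPM with lean secretome, overlapping (-0.05, adjusted p = 0.22). Cgn (0.47) and Dsp (0.38) rose, and Dsg2 (-0.57) and the transcription factor Ehf (34.0, 33.4 and 34.0 to 14.2, 15.4 and 15.6 CPM, -1.17) fell. Of 21 mesenchymal genes 5 were higher and 4 lower, with 3 higher without control replicate 1 or 2 or lean replicate 2 or 3. Vim (adjusted p = 0.946), Zeb1 (-0.01) and Snai2 (-0.03) did not pass, while Fn1 was at 1489, 1549 and 1578 and 1028, 949.9 and 881 CPM (-0.69, adjusted p = 0.000494). BMP readouts fell: Id1 was at 109, 112 and 103 and 72.2, 74.8 and 65.3 CPM (-0.61), Id3 at 32.5, 33.7 and 31.7 and 17.4, 17.7 and 18.5 CPM (-0.87), and Id2 (-0.35) and Smad6 (-0.29) were lower too. The TGF-beta receptor gene Tgfbr1 also fell (-0.71). In the TGF-beta and BMP list as a whole 4 of 20 were higher, among them Inhba (60.5, 56.8 and 64.5 to 108, 105 and 111 CPM, 0.83), and 11 lower.

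Growth factor signalling genes were more often higher than lower. Of 32 tested early genes and feedback genes of the ERK pathway and EGF receptor ligands 22 were higher and 0 lower (median 0.31). Dusp5, a nuclear phosphatase induced by ERK, was at 34.8, 35.7 and 37.1 CPM in control medium and 86.8, 80.5 and 79.2 CPM with lean secretome (1.20, SE 0.0513, adjusted p = 3.6e-19). Of the ligands, Areg was at 41.4, 42.7 and 43.8 and 88.9, 85.5 and 83.7 CPM (1.01) and Ereg at 38.7, 35.9 and 37.6 and 69.7, 69.4 and 70.4 CPM (0.90). All lean libraries exceeded all controls in these 3 genes. The ERK phosphatase Dusp6 rose by 0.80, Myc by 0.69, Phlda1 by 0.64 and Fosl1 by 0.64, while Jun (-0.16, adjusted p = 0.056), Junb (0.06) and Etv5 (-0.04) did not pass. Jun passed, as lower, without control replicate 1 (adjusted p = 0.0434), control replicate 3 (0.0285) or lean replicate 1 (0.019).

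Inflammatory genes were mixed. NF-kB targets and chemokines had 15 higher and 4 lower of 23 tested (median 0.19). Ccl20, a chemokine for CCR6-bearing lymphocytes, was at 3.63, 4.09 and 4.45 and 17.2, 15.4 and 17.0 CPM (2.03, adjusted p = 3.57e-10) and the feedback inhibitor Tnfaip3 at 48.5, 48.8 and 47.2 and 86.5, 82.3 and 83.4 CPM (0.80), whereas complement C3 fell from 29.3, 30.6 and 28.6 to 11.9, 12.0 and 13.0 CPM (-1.26, adjusted p = 1.94e-15). These 3 genes had no overlap between media. The interferon list had 1 higher and 7 lower of 27, and Stat2 (-0.36) and Irf9 (-0.33), parts of the factor that drives it, were lower. Receptors of the IL-6 family fell, with Osmr (3.61 to 1.85 CPM, -0.96), Lifr (-0.68), Il6ra (-0.67) and the shared chain Il6st (-0.22), along with Stat3 (-0.21) and Socs3 (-0.40). Socs1 rose by 1.01. The whole JAK-STAT list had 6 higher and 11 lower of 20.

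Proteolysis and coagulation genes included some of the larger shifts. Of 21 tested matrix proteases and inhibitors 10 were higher and 5 lower. Plat, tissue plasminogen activator, was at 59.8, 59.9 and 59.9 CPM in control medium and 140.3, 133 and 147 CPM with lean secretome (1.23, adjusted p = 2.75e-16), and Plaur, the urokinase receptor, at 154, 151 and 146 and 330.2, 318 and 335 CPM (1.13, adjusted p = 0.000212). Procr (1.00), tissue factor F3 (0.72) and Mmp10 (1.41) rose. Adamts1 was joined in its decrease by Adamts5 (1.43 to 0.44 CPM, -1.69), Adamts15 (-0.87) and Mmp9 (1.96 to 0.53 CPM, -1.88).

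Among metabolic and hormone-linked genes, Txnip, which is induced by glucose and restrains its uptake, was at 48.7, 49.9 and 46.7 and 25.9, 27.4 and 25.2 CPM (-0.89, adjusted p = 1.18e-10), and its relative Arrdc4 fell by 0.81. Tsc22d3, a glucocorticoid target known as GILZ, was at 21.4, 19.3 and 19.6 and 9.68, 9.5 and 9.84 CPM (-1.05, adjusted p = 6.52e-13), while the glucocorticoid target Sgk1 rose by 0.64. In glycolysis and hypoxia 10 of 27 tested genes were higher and 9 lower, with Egln3 (34.9, 35.5 and 34.3 to 70.0, 72.3 and 70.7 CPM, 1.03) and Slc2a1 (0.56) up and Pdk1 (-0.71) and Ndrg1 (-0.64) down. Without control replicate 2 the count lower in glycolysis and hypoxia was 6. Insulin, IGF and FOXO genes were split at 9 and 7 of 19, with 6 higher without control replicate 1, lean replicate 1 or lean replicate 3. Lysosome and autophagy genes were mostly higher, 18 of 29 with 2 lower (median 0.20), led by cathepsin D, Ctsd (303 to 479 CPM, 0.66), and acid glucosidase Gaa (0.56).

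The lists that follow were also read by their counts. Heat shock chaperones had 2 higher and 3 lower of 17, with 1 lower without control replicate 2 or lean replicate 1. The inducible member Hspa1b was at 34.7 and 35.4 CPM (0.03, adjusted p = 0.718). Its paralog Hspa1a was called lower (adjusted p = 0.044) but lost the call in 5 of 15 alternatives. Of 18 ER chaperones and unfolded protein genes 10 were higher and 4 lower, all by small amounts, with Hspa5 at 0.28 and Xbp1 at -0.26. The respiratory chain had 2 higher and 9 lower of 30. Without control replicate 2 or 3 or lean replicate 3 these were 1 and 5, and without lean replicate 1 the count higher was 1. The list of MYC network and ribosome biogenesis genes had 6 higher and 5 lower of 22. There were 3 lower without control replicate 1 or 3 or lean replicate 3, and 4 higher without control replicate 3 or lean replicate 2. Myc, Odc1 and Mxd4 were among the higher members, and the ribosome biogenesis genes Ncl, Npm1 and Fbl among the lower. Clock genes had 1 higher and 4 lower of 16. The count lower was 2 without control replicate 3 or lean replicate 1, and the count higher was 2 without lean replicate 3 or obese replicate 2. The BCL2 family had 4 higher and 1 lower of 13. Bcl2l1 rose by 0.39, and the other higher members were the pro-apoptotic genes Pmaip1, Bax and Bok. The lower member, Bmf, is pro-apoptotic too and fell by 0.72. The list of cholesterol efflux genes, LXR receptors and LXR targets had 4 higher and 0 lower of 8. Only 2 were higher without control replicate 1, lean replicate 1 or lean replicate 3. The higher members were Abcg1, Lpcat3 and the LXR receptor genes Nr1h2 and Nr1h3. The targets Abca1 (adjusted p = 0.264) and Mylip (0.275) did not pass. The 6 tested aryl hydrocarbon receptor genes had 2 higher and 3 lower, but 1 lower without control replicate 2 or 3, with Cyp1a1 at 0.432 and 1.61 CPM (1.85, adjusted p = 0.000915).

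Some low-level genes, picked after their values were seen, moved by large factors. Krt5, a keratin of basal epithelium, was at 0.168, 0.191 and 0.32 CPM in control medium and 6.27, 5.05 and 6.61 CPM with lean secretome (4.70, adjusted p = 1.3e-11), and the keratin Krt76 at 1.01, 0.955 and 0.889 and 9.16, 8.27 and 8.16 CPM (3.16, adjusted p = 8.26e-08). Of 18 mammary luminal, basal and milk genes only 6 were tested, with 3 higher (Krt5, Krt8 and Krt18) and 1 lower. Other basal genes were too low to test. Krt14 had sums of 13 counts in control medium and 19 with lean secretome, and Krt17 and Trp63 had 0 in both. Cd36, a fatty acid receptor, and the peroxidase Gpx2 had too few counts for a test, with sums over the 3 libraries of 1 and 0 in control medium and 33 and 19 with lean secretome.

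NMuMG cells given obese secretome give a further reference, since they too received 50% secretome. That comparison shares the lean libraries with the one above, so its values are set beside it and add no independent count (5261 of 15014 genes called, 35%). Gsta4 was at 711, 309.7 and 365 CPM in the obese libraries, and lean over obese was 1.24 (adjusted p = 0.0209) against 2.21 over control. Mt2 was at 32.8, 63.0 and 55.9 CPM with obese secretome, and lean over obese was -1.67 (adjusted p = 0.00272) against -2.35. In each of these genes obese replicate 1 was the obese library nearest to the lean mean, as in 15 of the 16 genes plotted by library. Gsta4 kept its direction without each library in turn but lost the call without lean replicate 1 (adjusted p = 0.0516), lean replicate 3 (0.0621) or obese replicate 3 (0.0714). Ccnb2 was at 96.1, 109 and 106 CPM with obese secretome (-1.11 lean over obese), and Areg at 64.9, 54.2 and 57.9 CPM (0.55).

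The change was also compared with E0771 cells, which had the same treatment in a medium whose protocol lists no insulin and no glucose. The difference between the lines was tested as an interaction over 18 libraries, in which 5710 of 16529 genes (34.5%) were called. Of the 39 genes named above for their size or their CPM, 24 were measured in E0771 at 1 CPM or more, and 17 of them differed between the lines. Slc7a11 was at 7.77 ± 0.763 CPM (SD, n = 3) in E0771 control medium and 15.0 ± 2.49 CPM with lean secretome, a log2 fold change of 0.94 against 3.35 in NMuMG (difference 2.41, SE 0.464, adjusted p = 0.00115). Hmox1 differed the other way: it was at 83.8 ± 5.85 and 1603 ± 495 CPM in E0771, a change of 4.26 against 2.07 (difference -2.19, adjusted p = 0.00118). In E0771, 49.1% of genes were called for lean over control. Adamts1 and Acta2 were called in both lines with opposite signs, at 1.14 and 0.68 in E0771. The metallothioneins, at 206 ± 13.5 and 194 ± 14.9 CPM for Mt2, did not pass in E0771 (-0.09 for Mt2 and 0.08 for Mt1), and the difference from NMuMG was -2.26 for Mt2 (adjusted p = 9.22e-06) and -1.42 for Mt1 (adjusted p = 1.06e-05). The protocol lists insulin and glucose for the NMuMG medium only, and line and listed medium cannot be told apart in this comparison.

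**Figure D5:**
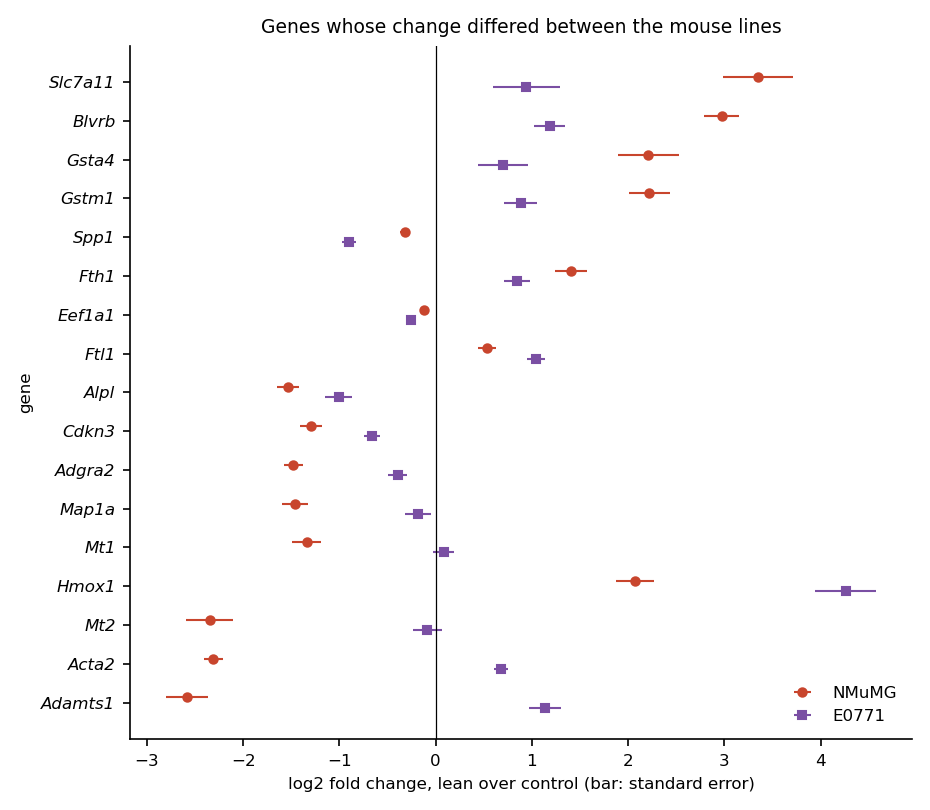
Log2 fold change of lean over control with its standard error in NMuMG (circles) and E0771 (squares) for the 17 genes whose change differed between the lines, ordered by the difference. Adamts1 and Acta2 lie on opposite sides of 0 in the 2 lines, and Slc7a11 has the largest positive difference, 2.41.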

How the data were processed

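The values used were raw counts per Ensembl gene ID, deposited by the authors for 18 mouse libraries of 1 table (56980 IDs); the human table was not used here. Poly(A) RNA was prepared with a directional kit and sequenced as paired 150-base reads, per the labels' protocols. The submitters' processing notes name cutadapt 1.16, STAR 2.7.9a, featureCounts 1.6.3 and the build GRCm39, and the strand setting and annotation release are not given in the sources used here. Symbols came from a RefSeq table on GRCm38, used for names only, and matched 14705 of 15014 tested IDs. Reads carried no molecular identifiers.

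Counts of the 9 NMuMG libraries were filtered (filterByExpr), scaled by TMM (factors 0.987 to 1.01) and fitted in 1 model in edgeR 4.0.16 under R 4.3.3 with the robust quasi-likelihood test, Benjamini-Hochberg adjustment over all 15014 genes and a threshold of 0.05. A standard error is the size of the log2 fold change divided by the square root of F. The same test gave lean over obese, and an 18-library fit gave the difference between lines. CPM used TMM-scaled library sizes. On simulated data with 200 of 15014 genes changed, all with a mean above 2 CPM, the step recovered 91% at 1.5-fold and 100% at 2-fold with 5.45% false calls. The simulation did not cover changes in genes at lower levels, or a share of changed genes as large as the 38.2% called here. Alternatives were another normalization, DESeq2 1.42.0, other filters, other samples in the fit, a replicate block and leaving out each library.

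The 42 gene lists and the genes described were chosen with earlier results of these data known. By rule the text named the 15 largest increases and decreases (mean log2 CPM 2 or more, no overlap between media), the 5 largest gains and losses in CPM, up to 4 called members per direction and the first 3 of each list, and genes going from at most 3 to at least 20 counts in every library. The other genes described, among 56 checked, were chosen after their values were seen. Some genes are not reported here. Same-numbered lean and control libraries did not deviate together (correlations of deviations -0.0064, 0.0092 and -0.0199), so replicate numbers were not taken to pair them. Every pair of replicates differed by more than counting noise.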

Additional observations from a re-analysis of the deposited data

Results flagged for a closer look

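The change with lean secretome differed between NMuMG and E0771 in 17 of the 24 genes that were named for their size or CPM and measured in both lines, by edgeR's test of the difference itself over 18 libraries (34.5% of all genes tested passed it). The differences are NMuMG minus E0771 on the log2 scale.

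The change was more negative, or less positive, in NMuMG for Adamts1 (-3.72), Acta2 (-2.99), Mt2 (-2.26), Hmox1 (-2.19), Mt1 (-1.42), Map1a (-1.28), Adgra2 (-1.08), Cdkn3 (-0.63), Alpl (-0.52) and Ftl1 (-0.51). It was more positive, or less negative, for Slc7a11 (2.41), Blvrb (1.79), Gsta4 (1.51), Gstm1 (1.34), Spp1 (0.58), Fth1 (0.56) and Eef1a1 (0.13). Adamts1 and Acta2 were the 2 genes called in both lines with opposite signs. Adamts1 was at 13.2 ± 0.256 CPM in E0771 control medium and 29.1 ± 3.67 CPM with lean secretome (SD, n = 3 each), while Acta2 was at 18.0 ± 0.843 and 28.7 ± 3.43 CPM.

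The direction of all 17 differences held in 16 alternatives, and 14 kept their call in each. Fth1 lost its call in 14 of the 16, with adjusted p up to 0.0734, and without any 1 of the 12 lean and control libraries of both lines. Alpl lost it in 5, among them without E0771 lean replicate 2 (-0.43, adjusted p = 0.105), E0771 control replicate 3 (-0.49, adjusted p = 0.0516), NMuMG control replicate 2 (-0.46, adjusted p = 0.0696) and NMuMG lean replicate 1 (-0.45, adjusted p = 0.0801), by the same edgeR test. Eef1a1 lost it without E0771 control replicate 3 (0.09, adjusted p = 0.0508, edgeR). The protocols list different media for the lines, so line and listed medium cannot be told apart.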

How the results depend on the processing

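The count of genes called for lean over control was 5731 and stayed between 4779 and 5864 over 15 alternatives: 5724 with DESeq2's size factors, 5042 with DESeq2, 5509 with no filter, 5625 with a stricter filter, 5864 with the 6 libraries alone and 4779 to 5850 without each library in turn. With the replicate number as a block it was 5652, and the block gave 5190 against 5261 for lean over obese and 5554 against 5710 for the difference between lines. Lean over obese ranged from 4376 to 5136 without each library, and the difference between lines from 5199 to 5559, of which the fits without E0771 libraries were added after the data were seen.

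Of 374 genes checked singly (318 named by the rule and 56 added after values were seen), 335 were called and 294 kept the call in all 15 alternatives. In 41 the call was lost in at least 1 alternative, and 5 gained one, among them Ireb2, Jun, Mtf1 and Smad7. Only Gstp2 reversed: it was -1.8 to 1.32 without each library in turn, with 1.32 only without control replicate 1. The cause of these changes was not tested beyond the library left out. NRF2 genes called higher numbered 28 and mitotic genes called lower 29 in every alternative, but counts in other lists moved when 1 library was left out. The list of LXR receptors and targets went from 4 to 2 higher, and fatty acid synthesis from 3 to 1. ATF4 genes called lower went from 12 to 8. The libraries are named beside these lists, but not every move in the other lists is named. The choice of fit moved counts as well. With DESeq2, respiratory chain genes called lower went from 9 to 5, heat shock chaperones from 3 to 1 and droplet and triglyceride genes from 5 to 3. Iron and heme genes called lower went from 2 to 1 with DESeq2, its size factors, no filter, the 6 libraries alone or the replicate block. Depth limits genes at low levels, where 11.9% were called at a mean log2 CPM of 0 or less against 64.4% above 8. Control medium held no conditioned share, replicate origin is not stated, and close paralogs can share reads.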
